A study of Mus musculus with 14 samples.

Results

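The genes described here are 10 members of the TNF, Fas and TRAIL death pathway. They were chosen by name from the 53801 genes measured, with earlier results of these data known. The ligands are Tnf, Fasl and Tnfsf10 (TRAIL), the receptors Tnfrsf1a, Tnfrsf1b, Fas and Tnfrsf10b, and the intracellular effectors Casp8, Ripk3 and Mlkl. All 10 had enough reads to be tested. They were followed in bulk RNA-seq of 14 tumors of CT26, a mouse colon carcinoma line, grown under the skin of both flanks of female BALB/c mice aged 6 to 8 weeks. The CT26 cells of all groups carried a library of DNA barcodes. Treatment began on day 7 and was given every 3 days, 5 times in all, and tumors were taken 3 days after the last dose. There were 5 tumors treated with control IgG, 5 responders to anti-PD-1, an antibody that blocks the T cell checkpoint receptor PD-1, and 4 non-responders to it. Response was assigned by tumor size at the end of treatment, smaller in responders, so tumor size and response group cannot be told apart. Read as a mouse number and a flank, the tumor names place the 14 tumors in 11 mice, with both flanks of mouse 14 (control IgG), mouse 30 (responder) and mouse 33 (non-responder) sequenced, and p-values over tumors then treat the flanks of 1 mouse as separate samples.

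Ligands of this family bind trimeric receptors on a target cell. Fas and the TRAIL receptor recruit an adaptor that activates caspase-8 and starts apoptosis, whereas TNF receptor 1 mainly starts NF-kappaB signaling and kills when survival signaling fails. When caspase-8 is inactive, RIPK3 phosphorylates MLKL, which breaks the plasma membrane in necroptosis. Cytotoxic T cells and NK cells use Fas ligand and TRAIL beside perforin and granzymes, and TNF released by T cells and macrophages acts on tumor cells and on blood vessels.

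A subset of the pathway differed in mean level between responders and the other groups. Tnfrsf1b, Fas, Tnfsf10 and Ripk3 were higher in responders than in non-responders and than in control IgG tumors, Tnfrsf10b and Casp8 were lower in responders than in control IgG tumors, and no member passed the test between non-responders and control IgG tumors. The changes were small, between 1.29-fold and 1.78-fold for the members that were higher. For Tnfsf10, Ripk3 and Casp8 responders overlapped the controls. Against non-responders only Tnfrsf1b passed the test in all 14 fits without a single tumor. Of all genes tested, 9.9% passed against non-responders and 13.2% against controls. Total expected counts were between 33237744 and 48481461 per tumor, so that 3 counts, taken as the lowest detectable level, were at most 0.0903 CPM (read counts scaled to a common library size), and Tnf, at 31 to 148 counts per tumor, and Fasl, at 44 to 140, were measured with the fewest reads. Levels below are CPM scaled by TMM, a normalization between libraries, unless TPM (a level per gene length, scaled to a common total) is named, and fold changes are from edgeR's quasi-likelihood test with Benjamini-Hochberg adjustment over the 16287 genes that passed a filter on low counts, called at an adjusted p under 0.05.

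Several marker lists moved with the same groups. Of 9 T cell markers 8 were higher in responders than in non-responders, and their summed level was 44.3 to 87.0 CPM in responders, against 24.9 to 31.0 in non-responders and 18.6 to 44.6 among the controls. Of 6 dendritic cell markers 5 were higher in responders (summed 30.6 to 45 CPM, against 16.5 to 21.7 in non-responders and 17.8 to 29.4 in controls), and 4 pan-leukocyte genes summed to 502 to 705 CPM in responders, 424 to 458 in non-responders and 397 to 493 in controls, with 2 of 4 called. All 5 erythroid genes were lower in responders than in non-responders (summed 59.3 to 283 against 376 to 2066 CPM). In that comparison 1 of 6 NK cell and 1 of 9 macrophage markers were called higher. Against controls the NK cell markers Ncr1, Klrb1c, Klrk1, Klre1 and Eomes were higher in responders (edgeR adjusted p between 0.0027 and 0.0445). Prf1 was not called there (adjusted p = 0.929). No gene of these lists was at 0 in every tumor. The part of these cell types in the members' differences was not tested, and in bulk tumors fewer cells of a type and less RNA per cell cannot be told apart. Of the colon epithelium markers Cdx1 was at 0 in all 14 tumors and Vil1 at most 0.174 CPM, and Cdx2 was between 0.0199 and 0.680 CPM. Krt20 was between 202 and 489 CPM, Krt18 between 7.75 and 15.9, Krt8 between 0.874 and 27.1, Cdh1 between 1.40 and 10.7, Epcam between 0.554 and 5.33, and Lgals4 between 1.07 and 2.33.

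Non-responder tumor 33R stood apart from its group. The chi-square per gene between its counts and those of the other non-responders was 124 to 181, against 30.4 to 34.9 among those 3, and its log2 values fell with gene length at a slope of -0.31, against -0.10 to 0.08 in the other 13 tumors. Without it, Tnfrsf1b (log2 fold change 0.45, adjusted p = 0.0252), Fas (0.91, adjusted p = 0.0310) and Ripk3 (0.45, adjusted p = 0.0469) were still called higher in responders than in non-responders, Tnfsf10 was not (0.93, adjusted p = 0.0574), and 4.8% of all genes were called in place of 9.9%. In the comparison with controls, which shares the estimate of spread, Fasl was then called (0.70, adjusted p = 0.0429) beside the 6 members called with it.

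Because Tnfrsf1b, Fas, Tnfsf10 and Ripk3 were called higher in both comparisons of responders, the 250 bases before the RefSeq start of each are shown (assembly GRCm38.p6, coding strand, 5′ to 3′), with matches to the gamma-interferon activated site TTCNNNGAA or to the interferon-stimulated response element GAAANNGAAA in capitals. Both are letter patterns bound by interferon-activated factors. They come from chr4:145246871-145247120 (minus strand) for Tnfrsf1b, chr19:34290409-34290658 (plus) for Fas, chr3:27316827-27317076 (plus) for Tnfsf10 and chr14:55788858-55789107 (minus) for Ripk3.
Tnfrsf1b: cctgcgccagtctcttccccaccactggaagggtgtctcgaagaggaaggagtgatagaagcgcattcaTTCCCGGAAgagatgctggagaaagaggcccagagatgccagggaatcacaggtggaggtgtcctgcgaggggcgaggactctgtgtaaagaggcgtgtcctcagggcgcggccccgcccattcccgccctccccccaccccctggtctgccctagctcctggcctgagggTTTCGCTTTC
Fas: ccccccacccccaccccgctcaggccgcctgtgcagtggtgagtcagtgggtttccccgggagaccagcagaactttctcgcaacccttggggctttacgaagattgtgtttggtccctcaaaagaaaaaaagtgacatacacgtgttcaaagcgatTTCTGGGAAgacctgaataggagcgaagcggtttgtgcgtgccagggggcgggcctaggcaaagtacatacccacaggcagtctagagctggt
Tnfsf10: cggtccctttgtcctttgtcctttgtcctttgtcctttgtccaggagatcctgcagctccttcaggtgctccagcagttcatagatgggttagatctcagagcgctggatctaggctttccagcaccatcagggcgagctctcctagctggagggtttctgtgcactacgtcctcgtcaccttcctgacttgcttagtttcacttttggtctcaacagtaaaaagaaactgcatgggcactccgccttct
Ripk3: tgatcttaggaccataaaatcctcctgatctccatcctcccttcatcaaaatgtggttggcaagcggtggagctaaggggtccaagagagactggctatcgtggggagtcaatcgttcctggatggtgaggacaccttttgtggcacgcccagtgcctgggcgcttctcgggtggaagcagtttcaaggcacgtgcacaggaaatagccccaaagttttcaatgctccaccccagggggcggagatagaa

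Tnfrsf1b held 1 activated site (TTCCCGGAA, bases -181 to -173 from the start) and 1 response element on the minus strand, directly before the start (TTTCGCTTTC as read here, bases -10 to -1). Fas held 1 activated site (TTCTGGGAA, bases -93 to -85). Tnfsf10 and Ripk3 held neither in this window. Of the 9 members with a RefSeq promoter in the table used, which did not include Tnfrsf10b, the third with an activated site was Tnfrsf1a. Both strands were searched, and 7.02% of 32851 mouse promoters of the same length held an activated site and 2.98% a response element. A looser NF-kappaB pattern, GGGNNNNNCC, was found in Tnf, Tnfrsf1a, Tnfrsf1b, Fas and Fasl and in 45.8% of all promoters, and at 3 overlapping positions in Tnfrsf1b and 2 positions in Fas. None of the 3 patterns was found in Tnfsf10, Casp8, Ripk3 or Mlkl. For Casp8 the window (chr1:58802252-58802501, plus strand) lay inside the annotated gene, which starts at 58795374, so bases before that start were not searched. The window of Tnfrsf1a (from 125349473) also lay after the annotated start of its gene (125349362). A match is a description of letters, not of binding.

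Per gene length, Tnfrsf1a, Mlkl, Casp8 and Tnfrsf1b were the most abundant members and Tnf and Fasl the least abundant in every group. Tnfrsf1a, which encodes TNF receptor 1, the broadly expressed receptor of soluble TNF, was the highest member in all 3 groups, at 98.9 ± 8.44 TPM in responders, against 76.2 ± 12 in non-responders and 82.3 ± 6.68 in the controls (mean ± SD, n = 5, 4 and 5), without overlap with the next member. Mlkl, Casp8 and Tnfrsf1b followed, between 26.2 and 49.7 TPM on average. In responders the order was Mlkl (49.7), Tnfrsf1b (45) and Casp8 (38.1 TPM), in which neighbours overlapped, whereas in control IgG tumors Tnfrsf1b (29.8 TPM) lay below Casp8 (41.9) and Mlkl (40.9) without overlap. Ripk3 followed them in all 3 groups, at 8.89 to 14.0 TPM on average, and Tnfrsf10b averaged 7.54 to 9.55 TPM, overlapping Ripk3 in control IgG tumors and non-responders but not in responders. Fas averaged 8.43 TPM in responders, 4.21 in non-responders and 4.28 in controls, and Tnfsf10 5.04, 2.20 and 2.72 TPM in the same order. In responders Fas overlapped Tnfrsf10b, and Tnfrsf10b overlapped Tnfsf10, whereas in control IgG tumors Fas overlapped Tnfsf10, so that a ligand and receptors of the pathway lay at similar levels there. Tnf and Fasl were the lowest, between 1.17 and 2.18 TPM, and overlapped each other in all 3 groups. RSEM's mean transcript length varied between tumors for Fasl (1131 to 1937 bases) and Tnfsf10 (3742 to 4993), which enters their TPM.

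**Figure D1:**
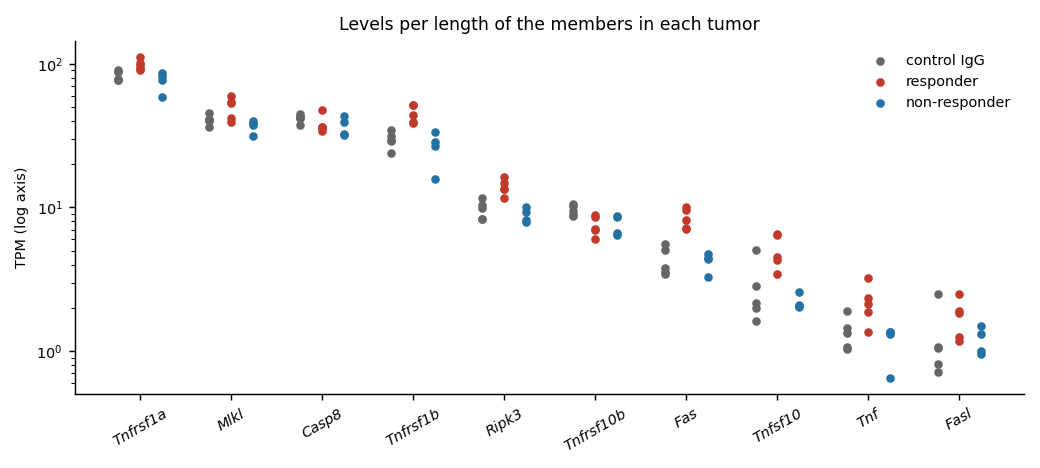
Level per length of the 10 members in each tumor, in TPM on a log axis, with members ordered by their mean over all 14 tumors and points coloured by group. Tnfrsf1a was highest in every group, and Tnf and Fasl lay lowest, between 0.65 and 3.22 TPM.

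Among the ligands, Tnfsf10 was the one that passed the test. It encodes TRAIL, a membrane ligand that NK cells, T cells and myeloid cells display. Tnfsf10 (ENSMUSG00000039304, mm10 chromosome 3, 27317028 to 27342427, plus strand) was at 22.2, 13.2, 17.4, 16.6 and 14.2 CPM in responder tumors 24L, 26R, 30L, 30R and 35L. It was at 7.50, 9.10, 9.91 and 11.5 CPM in non-responder tumors 29L, 32R, 33L and 33R. It was at 14.2, 11.9, 6.52, 8.37 and 6.33 CPM in control IgG tumors 14L, 14R, 16R, 17R and 20R. All responders exceeded all non-responders, and both tumors of control mouse 14 were above the other controls, 14L reaching into the range of the responders. Tnfsf10 was 1.76-fold higher in responders than in non-responders (log2 fold change 0.82, SE 0.24, adjusted p = 0.0433) and 1.77-fold higher than in controls (0.82, SE 0.22, adjusted p = 0.0250). Against non-responders the adjusted p was between 0.0305 and 0.113 when single tumors were left out, and the call held in 5 of 14 such fits, being lost without control IgG tumor 17R, any responder but 26R, or any non-responder. It was also lost with an offset for gene length (log2 fold change 0.62, adjusted p = 0.139). The call against controls was lost without control IgG tumor 16R, 17R or 20R or responder 24L (adjusted p up to 0.0766). It held under 12 of 13 alternative analyses (adjusted p up to 0.0570).

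Fasl, which encodes the ligand that cytotoxic lymphocytes carry to Fas-bearing targets, did not pass the test. Fasl (ENSMUSG00000000817, chromosome 1, 161780689 to 161788495, minus strand) was at 3.24, 1.69, 2.35, 2.26 and 1.57 CPM in responders, in the order of tumors above. It was at 1.44, 1.48, 1.5 and 1.49 CPM in non-responders and at 1.42, 1.17, 1.16, 2.03 and 1.05 in controls. The responders lay above the non-responders without overlap, by as little as 1.57 against 1.5 CPM, and control tumor 17R lay among the responders. The log2 fold change was 0.59 (SE 0.24, adjusted p = 0.126) against non-responders and 0.70 (SE 0.22, adjusted p = 0.0521) against controls. The second was past the threshold under 7 of 13 alternative analyses, DESeq2 included (adjusted p = 0.0250), and without control tumor 17R (log2 fold change 0.90, adjusted p = 0.0206).

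Tnf, the cytokine of the pathway, was low in all tumors. Tnf (ENSMUSG00000024401, chromosome 17, 35199381 to 35202007, minus strand) was at 3.42, 2.07, 2.64, 2.15 and 1.48 CPM in responders. It was at 0.772, 1.67, 1.56 and 2.15 CPM in non-responders and at 2.10, 1.71, 1.21, 1.69 and 1.28 in controls. The groups overlapped, with the highest values in responders 24L and 30L and the lowest in non-responder 29L. The log2 fold change was 0.62 (SE 0.29, adjusted p = 0.189) against non-responders and 0.56 (SE 0.27, adjusted p = 0.202) against controls.

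Among the receptors, Tnfrsf1b rose most steadily. It encodes TNF receptor 2, which lacks a death domain, binds membrane TNF best and is carried mainly by regulatory and activated T cells, myeloid cells and endothelium. Tnfrsf1b (ENSMUSG00000028599, chromosome 4, 145213463 to 145246870, minus strand) was at 141, 111, 122, 130 and 109 CPM in responders. It was at 101, 86.3, 84.7 and 65.7 CPM in non-responders and at 95.8, 79.5, 86.9, 93.9 and 89.1 in controls. Every responder exceeded every tumor of the other groups, and non-responder 33R was the lowest. Tnfrsf1b was 1.45-fold higher in responders than in non-responders (log2 fold change 0.54, SE 0.11, adjusted p = 0.0143) and 1.38-fold higher than in controls (0.46, SE 0.11, adjusted p = 0.0123). Both calls held without any single tumor and under all 13 alternative analyses.

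Tnfrsf1a did not share this difference. Tnfrsf1a (ENSMUSG00000030341, chromosome 6, 125349362 to 125362484, plus strand) was at 146, 139, 149, 156 and 134 CPM in responders. It was at 135, 134, 134 and 127 CPM in non-responders and at 132, 137, 121, 145 and 127 in controls. Responders overlapped the non-responders at 134 to 135 CPM and the controls over a wider range. The log2 fold change was 0.13 against both groups (SE 0.07, adjusted p = 0.247 against non-responders and SE 0.07, adjusted p = 0.216 against controls). On the scale of log2(TPM + 1) the first was 0.38 (adjusted p = 0.0303), a scale on which the median of all genes shifted by 0.17.

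Fas, the receptor of Fas ligand, was among the members with the largest fold changes. Fas (ENSMUSG00000024778, chromosome 19, 34290666 to 34327772, plus strand, overlapping the small RNA gene Gm27818 on the same strand) was at 9.53, 7.03, 9.54, 7.35 and 6.74 CPM in responders. It was at 4.93, 3.68, 4.33 and 6.24 CPM in non-responders and at 4.86, 6.38, 3.68, 3.95 and 3.68 in controls. All responders exceeded all other tumors, with 6.74 in responder 35L nearest to 6.38 in control 14R. Fas was 1.68-fold higher in responders than in non-responders (log2 fold change 0.75, SE 0.20, adjusted p = 0.0332) and 1.78-fold higher than in controls (0.83, SE 0.19, adjusted p = 0.0105). The first call was lost without responder 24L, 30L or 30R or non-responder 32R or 33L (adjusted p up to 0.0937), whereas the second held without any single tumor.

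Tnfrsf10b, the mouse death receptor of TRAIL, had the opposite direction. Tnfrsf10b (ENSMUSG00000022074, chromosome 14, 69767472 to 69784411, plus strand) was at 13.6, 16.5, 20.1, 19.1 and 16.4 CPM in responders. It was at 21.3, 17.8, 21.3 and 21.5 CPM in non-responders and at 23.7, 28.3, 21.6, 23.0 and 22 in controls. Every control tumor exceeded every treated tumor, narrowly for the non-responders (21.6 against 21.5 CPM). Tnfrsf10b was 0.723 times the control level in responders (log2 fold change -0.47, SE 0.11, adjusted p = 0.0130), a call that held without any single tumor but not on the TPM scales (adjusted p = 0.117). Against non-responders the log2 fold change was -0.25 (SE 0.12, adjusted p = 0.170), and between non-responders and controls it was -0.21 (SE 0.12, adjusted p = 0.931). The TRAIL ligand and this death receptor thus differed in sign in responders against controls.

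Among the effectors, Ripk3, the kinase of necroptosis, rose in responders. Ripk3 (ENSMUSG00000022221, chromosome 14, 55784995 to 55788865, minus strand) was at 18.3, 17.2, 17.5, 19.5 and 15.1 CPM in responders. It was at 13.1, 12.4, 13.5 and 14.9 CPM in non-responders and at 15.3, 15.5, 11.5, 13.7 and 12 in controls. Responders exceeded non-responders, by 15.1 in 35L against 14.9 in 33R, and overlapped the tumors of control mouse 14. Ripk3 was 1.30-fold higher than in non-responders (log2 fold change 0.38, SE 0.11, adjusted p = 0.0412) and 1.29-fold higher than in controls (0.36, SE 0.10, adjusted p = 0.0300). The call against non-responders held in 6 of 14 fits without a single tumor and under 10 of 13 alternatives, being lost without control IgG tumor 17R, any responder but 35L, or non-responder 29L, 32R or 33L (adjusted p up to 0.109). The call against controls was lost without control IgG tumor 16R, 17R or 20R or responder 24L, 30L or 30R (adjusted p up to 0.0861). It held under 12 of 13 alternatives (adjusted p up to 0.0561).

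Mlkl, the membrane-breaking substrate of RIPK3, did not pass the test. Mlkl (ENSMUSG00000012519, chromosome 8, 111311797 to 111338177, minus strand, overlapping the processed pseudogene Gm45712 on the other strand) was at 78.9, 54.7, 75.7, 66.8 and 57.3 CPM in responders. It was at 59.0, 59.6, 55.4 and 62.3 CPM in non-responders and at 62.8, 63.7, 53.3, 59.1 and 62.1 in controls. Responders 24L, 30L and 30R lay above all other tumors, and 26R and 35L lay among them. The log2 fold change was 0.17 (SE 0.10, adjusted p = 0.294) against non-responders and 0.15 (SE 0.10, adjusted p = 0.362) against controls.

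Casp8, the initiator caspase of death receptors and a brake on necroptosis, was lower in responders than in controls. Casp8 (ENSMUSG00000026029, chromosome 1, 58795374 to 58847503, plus strand, overlapping Gm37760, a gene model without known product, on the same strand) was at 47.0, 51.2, 50.8, 60.6 and 51.8 CPM in responders. It was at 59.7, 55.2, 64.2 and 66.5 CPM in non-responders and at 60.7, 68.2, 57.9, 65.2 and 67.5 in controls. Responder 30R lay within the range of both other groups, and the other 4 responders lay below both ranges. Casp8 was 0.818 times the control level (log2 fold change -0.29, SE 0.08, adjusted p = 0.0285), and -0.23 on the log2 scale against non-responders (SE 0.08, adjusted p = 0.0931). The call against controls held in 7 of 14 fits without a single tumor, being lost without control IgG tumor 14R, 17R or 20R or responder 24L, 26R, 30L or 35L. It held under 10 of 13 alternative analyses, and the TPM scales were among those that lost it. On those scales the log2 fold change against non-responders was 0.05, with the median of all genes shifted by 0.17 to 0.24.

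**Figure D2:**
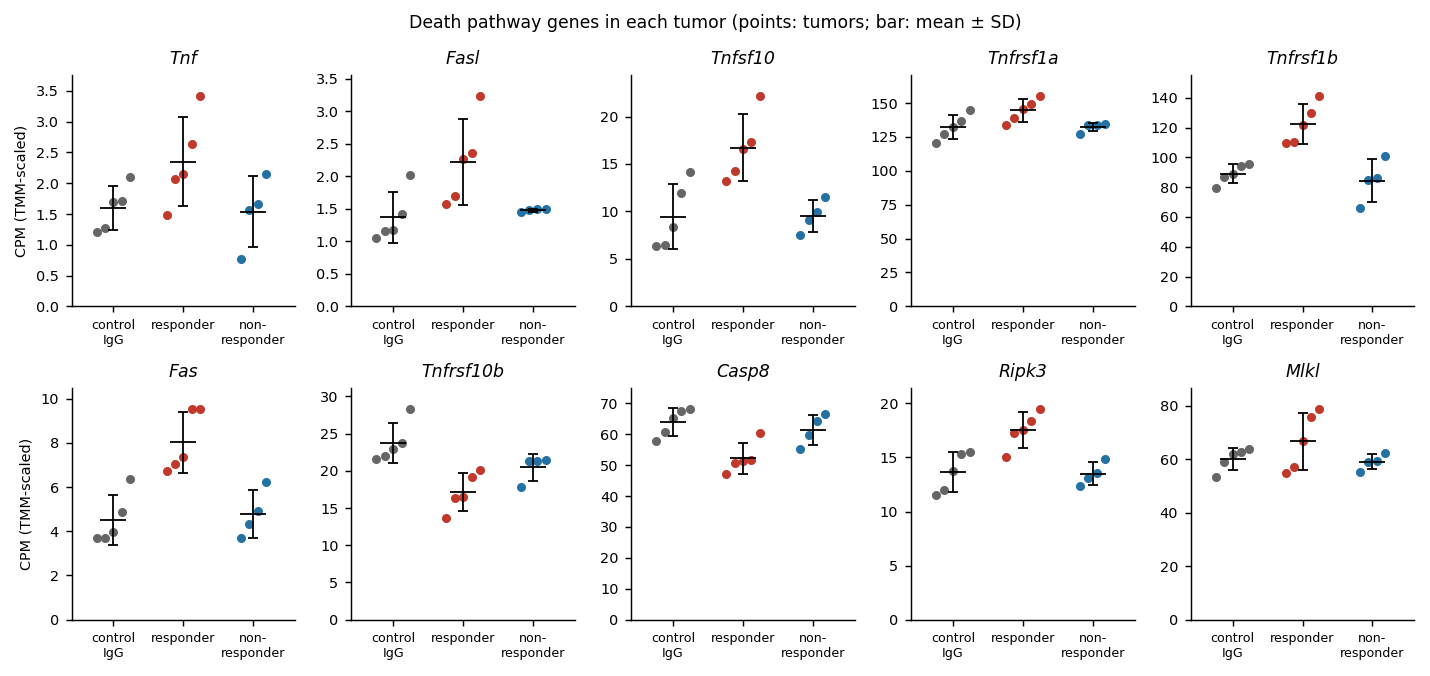
Level of each member in each tumor, in TMM-scaled CPM, by group, with the mean ± SD of 5 control IgG, 5 responder and 4 non-responder tumors. Responders lie above all non-responders for Tnfsf10, Tnfrsf1b, Fas, Ripk3 and Fasl, whereas for Tnfrsf10b all control tumors lie above all others.

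Counted over the members, 4 of 10 were called higher and 0 lower in responders than in non-responders. Of all genes tested, 9.9% were called in this comparison, 5.08% higher and 4.82% lower. The members' median log2 fold change was 0.46, that of all genes 0.0062, and 8 of 10 members were positive. The responders and non-responders did not overlap for 5 members, against 12.8% of all genes. Against control IgG tumors 4 members were higher and 2 lower, against 7.88% and 5.3% of all genes (13.2% in both directions), with a median of 0.41 against -0.011. The groups did not overlap for 3 members, Tnfrsf1b, Fas and Tnfrsf10b, against 15.1% of all genes. Between non-responders and control IgG tumors the members' log2 fold changes lay between -0.21 and 0.12, and no gene of the 16287 was called (0%) by edgeR, whereas 758 had an unadjusted p under 0.05, none of them a member, and DESeq2 called 18, also none of them a member. The 3 comparisons share their groups and are not independent of each other. The members were chosen with earlier results of these data known, so their counts are not those of a set chosen blind. With 1 library per mouse, the same 4 members were called higher against non-responders, a setting for which the share of all genes called is not given here.

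**Figure D3:**
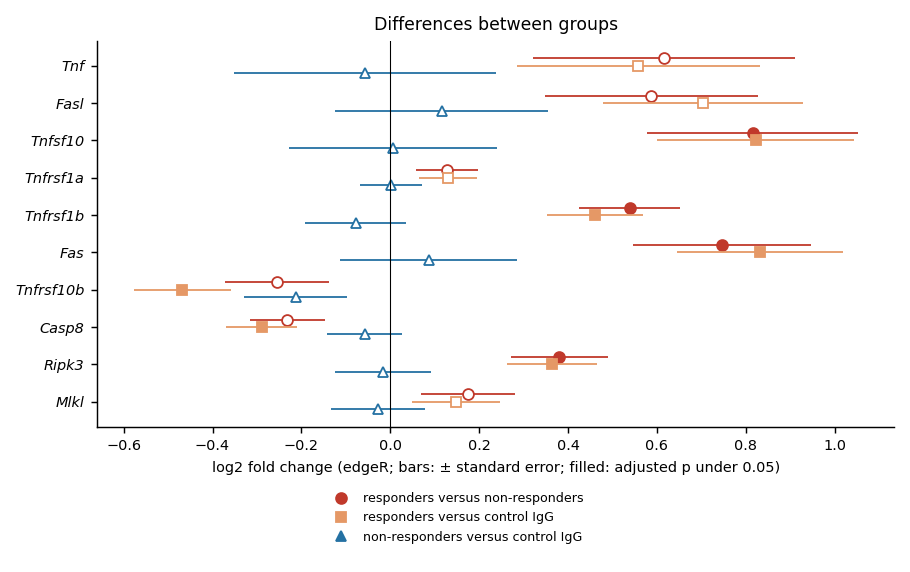
Log2 fold change of each member in the 3 comparisons, with bars of ± 1 standard error and filled symbols where edgeR's adjusted p was under 0.05. The comparisons of responders with either group lie side by side for most members, and the values of non-responders against controls lie between -0.21 and 0.12.

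The balance between genes was also compared within each tumor. The log2 ratio of Tnfrsf1b to Tnfrsf1a was between -0.33 and -0.04 in responders and between -0.96 and -0.42 in non-responders, a difference of 0.42 (two-sided exact permutation test over 5 and 4 tumors, p = 0.0159, adjusted over 3 ratios 0.0238). The ratio of Mlkl to Casp8 was 0.34 ± 0.30 in responders and -0.05 ± 0.13 in non-responders (SD, difference 0.39, exact permutation p = 0.0317, adjusted 0.0317). Responders 24L and 30L had the largest ratios of Mlkl to Casp8 and the other 3 lay between 0.10 and 0.14, beside the highest non-responder at 0.11. The ratio of Fasl to Cd3e, a T cell receptor subunit, ran the other way, between -1.56 and -0.87 in responders and between -0.61 and -0.17 in non-responders (difference -0.72, exact permutation p = 0.0159, adjusted 0.0238). Relative to this T cell gene, Fasl was thus lower in responders than in non-responders. Control IgG tumors lay between -1.49 and -0.58 and overlapped both groups. Their mean was -0.96, against -1.13 in responders and -0.41 in non-responders. Other T cell genes were not used as the reference, and against non-responders the log2 fold change was 1.27 for Cd3e and 0.83 for Cd3d. The smallest p that 5 against 4 tumors allow is 0.0159. The difference in Mlkl to Casp8 was not past the threshold in 7 of 9 tests without a single tumor (p between 0.0571 and 0.0714), being kept without responder 26R or non-responder 32R, nor on TPM (0.36, exact permutation p = 0.0635). With the flanks of a mouse averaged, the design could not go below 0.0571, which Tnfrsf1b to Tnfrsf1a (0.38) and Fasl to Cd3e (-0.72) reached, whereas Mlkl to Casp8 (0.36) had an exact permutation p of 0.114.

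**Figure D4:**
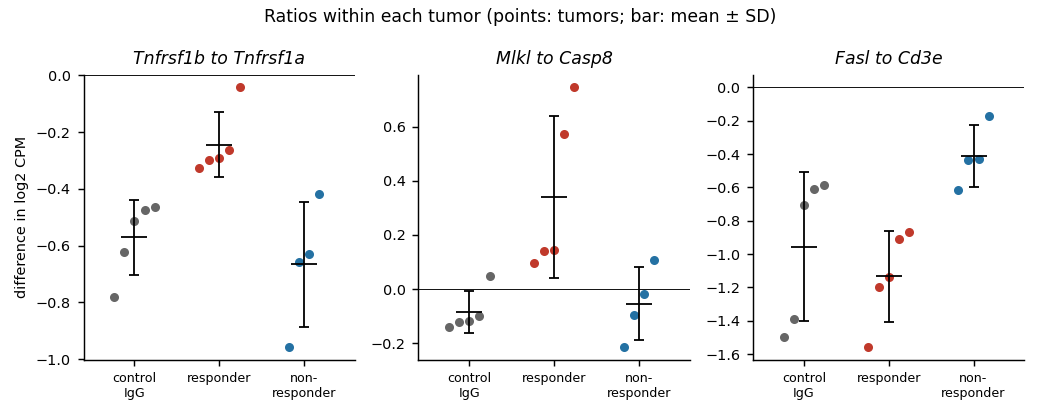
Difference in log2 CPM between the paired genes in each tumor, by group, with the mean ± SD. Responders lie above non-responders for Tnfrsf1b to Tnfrsf1a and below them for Fasl to Cd3e, and for Mlkl to Casp8 the upper 2 responders carry most of the difference.

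Relative to Ptprc, which encodes the leukocyte antigen CD45 and was itself higher in responders than in non-responders (log2 fold change 0.78, adjusted p = 0.0067), the members fell into separate sets. Tnfsf10 (0.04), Fas (-0.02), Tnf (-0.14), Tnfrsf1b (-0.22) and Fasl (-0.24) did not pass the limma test on the log2 ratio (adjusted p between 0.156 and 0.934). Ripk3 (-0.39), Mlkl (-0.61), Tnfrsf1a (-0.64), Casp8 (-1.0) and Tnfrsf10b (-1.03) were lower per unit of Ptprc (adjusted p between 0.000385 and 0.0251). On this scale 72.8% of all genes were called, because the reference itself moved, and the ratio is a second quantity and not a correction. Relative to the mean of the 4 pan-leukocyte genes, Casp8 (-0.67), Tnfrsf10b (-0.70), Tnfrsf1a (-0.31) and Mlkl (-0.28) were lower, and Ripk3 was not called (-0.06, adjusted p = 0.637). On that scale 47.2% of all genes were called, so that neither scale sets these members apart from other genes.

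The flanks of 1 mouse differed by amounts close to those between groups for some members. From left to right flank Fas changed by 0.39 on the log2 scale in mouse 14, -0.37 in mouse 30 and 0.52 in mouse 33, and Tnfrsf1b by -0.27, 0.09 and -0.37. Tnfsf10 changed by -0.25, -0.06 and 0.21, Ripk3 by 0.02, 0.15 and 0.14, and Tnfrsf1a by at most 0.07 in size. In all 3 mice Ripk3 and Casp8 were higher and Fasl lower in the right flank, by at most 0.26 in size. Some of these differences were as small as 0.02 (Ripk3 in mouse 14) and -0.01 (Fasl in mouse 33), and a difference between flanks was not tested.

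Over the 14 tumors, the genes whose log2 CPM was most like that of a member were taken as the 3 with the highest Pearson r, as a description without a test, since the groups themselves set part of it. Tnfsf10 was followed by Slc17a6 (r = 0.98), Klrk1 (0.97), an activating receptor of NK and CD8 T cells, and H2-T24 (0.97), a non-classical MHC gene, with r between 0.93 and 0.95 after the group means were removed. Tnfrsf1b was followed by Cemip (0.98), Acp2 (0.97) and Dock2 (0.97), the last a migration factor of leukocytes. Fas was followed by Ly6c2, Stk39 and Art2a-ps (all 0.95), and Ripk3 by Gimap9 (0.97), Fpr2 (0.95) and Sgk3 (0.95). Tnf was most like Tnfrsf25 (0.92), Trbc1 (0.89), the constant region of the T cell receptor beta chain, and Dhx58 (0.89). Fasl was most like Abcg1 (0.94), Cyp4v3 (0.94) and Sidt1 (0.93), and Mlkl was most like Crtam (0.93), Grb2 (0.89) and Acod1 (0.88). Casp8 (Fez2 0.91, Abt1 0.91 and Clybl 0.89) and Tnfrsf10b (Abt1 0.91, Ctps 0.91 and Zc3h15 0.90) shared Abt1, and Tnfrsf1a was most like Gm19585 (0.92), Gm10851 (0.91) and Mcoln2 (0.90).

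The members were set beside 133 other tested genes of the pathway, in 7 lists, of which 11 were higher and 3 lower in responders than in non-responders (10.5%, against 9.9% of all genes), with a median log2 fold change of 0.11. Among 6 other ligands, Ltb, which encodes lymphotoxin beta, was 2.02-fold higher (10.2 ± 1.38 CPM in responders, 5.08 ± 1.54 in non-responders and 4.73 ± 1.38 in controls, adjusted p = 0.0180). Tnfsf12, which encodes the ligand TWEAK, was 1.26-fold higher (33.6 ± 3.07 against 26.6 ± 1.37 CPM, adjusted p = 0.0254). Its receptor Tnfrsf12a was 0.519 times the non-responder level, at 164 ± 32.1 CPM in responders, 316 ± 88.2 in non-responders and 307 ± 29.1 in controls (log2 fold change -0.94, SE 0.17, adjusted p = 0.0079), so this ligand and receptor also differed in sign. Among 12 other receptors, Tnfrsf14, the receptor of LIGHT, was the one called higher (log2 fold change 0.76, adjusted p = 0.0175). Tnfsf11 (0.65), Tnfrsf21 (0.47) and Eda2r (-0.41) did not pass.

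Of 29 adaptors and ubiquitin enzymes, Traf1 (log2 fold change 0.60, adjusted p = 0.0139) and Tnfaip3 (0.63, adjusted p = 0.0342), which encodes the NF-kappaB inhibitor A20, were higher in responders, and the median was 0.07. For Tnfaip3 responders and non-responders overlapped, and the call held in 8 of 14 fits without a single tumor (adjusted p up to 0.0894). Birc3 (0.47) and Rnf31 (0.31) did not pass. None of 24 caspases and mitochondrial apoptosis genes was called by edgeR, the smallest adjusted p being 0.0541 for Apaf1 (0.39), and Bcl2 (0.29) and Pmaip1 (0.72) did not pass either. Of that list 6 genes had an unadjusted p under 0.05 and DESeq2 called 4, and its median was 0.01. Of 20 necroptosis and pyroptosis partners, Tlr3, a receptor of double-stranded RNA (0.72, adjusted p = 0.0233), Gsdmd, the pore-forming gasdermin D (0.52, adjusted p = 0.0114), and Nlrp3, an inflammasome sensor (0.61, adjusted p = 0.0256), were higher. Pgam5, a mitochondrial phosphatase (-0.40, adjusted p = 0.0164), and Aim2, a DNA sensor (-0.40, adjusted p = 0.0439), were lower, Aim2 being named for its call after its values were seen. The call of Aim2 held in 4 of 14 fits without a single tumor (adjusted p up to 0.133), and that of Pgam5 in 13.

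Of 7 tested genes in the list on shedding of TNF and its receptors from the cell surface, Adam17, the TNF-converting enzyme, was higher (0.42, SE 0.09, adjusted p = 0.0137). Its level was 82.4 ± 5.97 CPM in responders, 61.5 ± 7.56 in non-responders and 67.0 ± 3.35 in controls. Timp3 (0.77), Erap1 (0.45) and Frmd8 (0.14) did not pass. Of 35 NF-kappaB subunits and TNF-induced genes, the adhesion molecules Icam1 (0.88, adjusted p = 0.0096) and Vcam1 (0.52, adjusted p = 0.0192) were higher, and Selp (0.74) and Junb (-0.30) did not pass, with a median over the list of 0.11. In DESeq2, 25 of the 133 genes were called, beside 16.2% of all genes. Without responder 24L or non-responder 32R edgeR called 7 of the 133, beside 3.52% and 3.73% of all genes. The share called was 33.3% for ligands, 16.7% for receptors, 6.90% for adaptors, 25% for necroptosis and pyroptosis partners, 14.3% for shedding and 5.71% for NF-kappaB and TNF-induced genes, in lists of 6 to 35 genes.

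**Figure D5:**
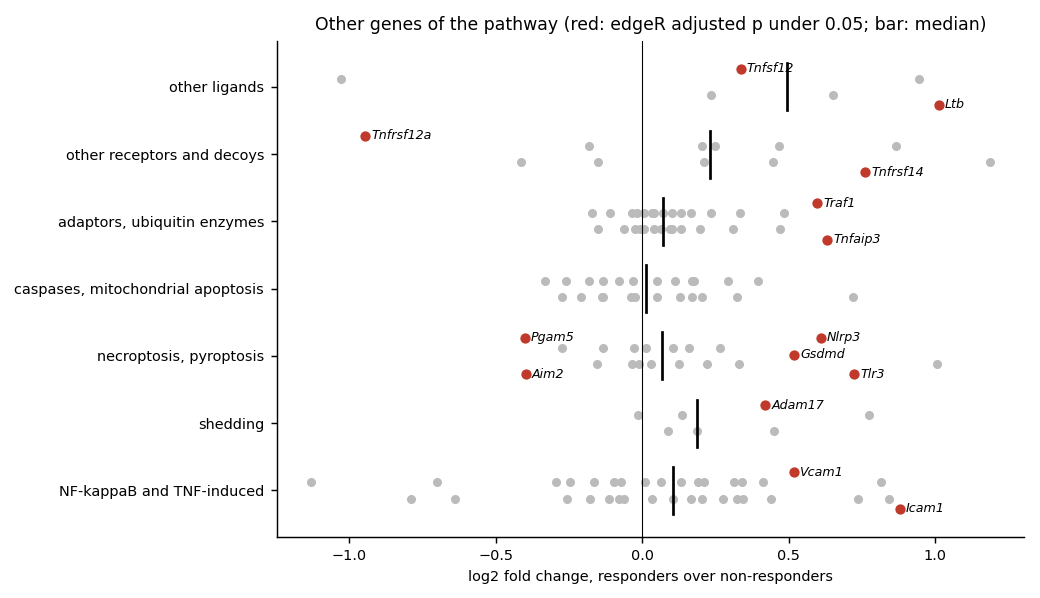
Log2 fold change (responders against non-responders) for 133 other genes of the pathway in 7 lists, with genes at an adjusted p under 0.05 in red and named and the median of each list as a bar. The largest decrease among the named genes was that of Tnfrsf12a (-0.94) and the largest increase that of Ltb (1.01), and no gene of the caspase and mitochondrial list passed in edgeR.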

How the data were processed

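RNA of 14 CT26 tumors was sequenced after poly(A) selection. Per the submitters' processing notes, the authors used STAR, RSEM and the mm10 genome. The values deposited by the authors that were used are expected counts, which are unnormalized RSEM estimates per gene, and TPM, in which the authors divided those estimates by effective length and scaled them to a common total. FPKM was not used. The detection floor covers counting error only. Within a group no pair of tumors agreed within sampling noise (chi-square per gene of at least 19.8).

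Expected counts were rounded and tested with edgeR 4.0.16 (TMM, filterByExpr, quasi-likelihood test, 1 fit of 14 tumors, no covariates), limma 3.58.1 and DESeq2 1.42.0 in R 4.3.3, with scipy 1.17.1 for exact permutation tests. Log2 CPM used a prior count of 2. Alternatives were other tests, normalizations, filters and units, an offset for gene length (loess span 0.5), an epidermis covariate, mouse as a random effect or 1 library per mouse, and each tumor left out. The edgeR and voom steps were tested on simulated data with known changes. Groups came from the labels. Members and lists were chosen with earlier results of these data known. Genes named are the members, the 4 genes of each pathway list with the smallest p and the 3 genes most like each member; some of these are not reported here.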

Additional observations from a re-analysis of the deposited data

Results flagged for a closer look

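In 30 groups of 4 or 5 tumors, one for each member and response group, the gap between the most extreme tumor and its neighbour was compared with Dixon's critical value, which chance passes in about 1 of 20 groups. It passed in 2. Tnfrsf10b was at 17.8 CPM in non-responder tumor 32R, and at 21.3 to 21.5 in the other 3 non-responders. Tnfrsf1a was at 127.5 CPM in non-responder tumor 33R, and at 134 to 135 in the other 3.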

How the results depend on the processing

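Of 567 recomputed log2 fold changes of single members, 499 kept their direction and their side of the threshold, 50 kept the direction but were no longer called, 16 became called and 2 reversed. The reversed ones were those of Casp8 against non-responders, at 0.0497 with log2(TPM + 1) and 0.0510 with log2(TPM + 0.1), scales that shifted the median of all genes by 0.17 and 0.24. The members called against non-responders, 4 in the report, were 7 with log2(TPM + 1), a scale for which the share of all genes called is not given here. They were between 1 and 4 when single tumors were left out. The 1 that remained without responder 24L, 30L or 30R or non-responder 32R or 33L was Tnfrsf1b, and 2 remained without control IgG tumor 17R or non-responder 29L. Against control IgG tumors, 6 in the report, they were 2 with an added limit of 0.5 on the absolute log2 fold change and between 3 and 7 without single tumors, the lowest without control IgG tumor 20R or responder 24L. No member was called between non-responders and controls under any alternative run. The 14 other pathway genes called became 25 with DESeq2, 28 with mouse as a random effect, 38 with log2(TPM + 1), 38 with log2(TPM + 0.1), and between 7 and 19 without single tumors. Of all genes 16.2% were called with DESeq2. That share is not given here for the random effect or the TPM scales, so those counts do not set the pathway apart from other genes. With flanks averaged per mouse, the exact permutation p was 0.0571 for Tnfrsf1b to Tnfrsf1a (difference 0.38), 0.114 for Mlkl to Casp8 (0.36) and 0.0571 for Fasl to Cd3e (-0.72), in a design that cannot go below 0.0571. The difference in Mlkl to Casp8 was 0.36 on TPM (p = 0.0635, exact permutation) and between 0.29 and 0.46 without single tumors, with a p over 0.05 without responder 24L, 30L, 30R or 35L or non-responder 29L, 33L or 33R. The cause of these changes was not tested. No paired analysis was possible because the labels give the groups no shared replicate numbers. The correlation between flanks of a mouse in the random effect fit was -0.28. A negative value gives the flanks of a mouse more weight than separate tumors. Calls in that fit therefore do not guard against treating flanks as separate samples.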

Other observations

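Beside the pathway genes, several other cell types of the tumor were followed by their markers. Of 4 tested B cell markers 1 was called higher in responders than in non-responders. The summed level of the list was 5.84 to 8.95 CPM in responders, 2.52 to 5.38 in non-responders and 2.49 to 3.18 in control IgG tumors. In the same comparison 1 of 6 neutrophil markers and 1 of 7 fibroblast markers were higher, with groups that overlapped in both lists. The neutrophil marker called was Csf3r (log2 fold change 0.85). S100a8 (-0.83), S100a9 (-0.67) and Retnlg (-0.64) were lower without a call, and Cxcr2 (0.08) and Mmp8 (0.07) changed little. The fibroblast marker called was Col1a2 (0.47), whereas Dcn (-0.58) and Lum (-0.14) were lower without a call. None of 6 endothelial markers was called between responders and non-responders by edgeR or DESeq2 (3 had an unadjusted p under 0.05), with summed levels of 203 to 258 CPM in responders and 146 to 215 in non-responders. Of 12 epidermis markers 0 were called in it by edgeR or DESeq2 or had an unadjusted p under 0.05. They varied within groups, from 14.7 to 1064 CPM in responders and from 9.03 to 776 in controls. Skeletal muscle markers did so too, with 0 of 7 on all 3 counts and sums of 23.8 to 415 CPM in responders. Against controls edgeR called Pax5, Ms4a1, Csf3r, Col1a1, Col1a2 and Emcn higher in responders (adjusted p between 0.000575 and 0.0346). Dcn was lower (adjusted p = 0.0057). Of the other neutrophil markers, S100a8 (-0.85), S100a9 (-0.69), Retnlg (-0.51) and Cxcr2 (-0.34) were lower against controls and Mmp8 (0.36) higher, none of them called.

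Against control IgG tumors, 15 of the 133 other pathway genes were higher and 6 lower in responders, beside 7.88% higher and 5.3% lower of all genes. Libraries differed in the mean fragment length behind RSEM's effective lengths, at 269 to 277 bases in responders, 277 to 288 in non-responders and 269 to 278 in control IgG tumors, and the part of this difference in the members' values was not tested beyond the offset for gene length.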
